A study of Mus musculus with 8 samples.

Results

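The serpins are the largest family of protease inhibitors in mammals, and they were followed here in keratinocytes sorted as basal cells from resting mouse back skin. Members were the probes whose platform gene symbol begins with Serpin, a clade letter from a to i and a digit, which gave 60 probes for 49 genes among 25697 probes for 16593 genes. A probe counted as detected where its deposited detection p was under 0.05 on at least 2 of the 8 arrays. By that rule 24 serpin probes, for 22 genes, were detected. All 60 probes matched an entry of the reference gene table.

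The cells came from Gli1-eGFP/+ mice on an outcrossed Swiss Webster background, taken as adults in telogen, the resting phase of the hair cycle. All 3 groups carried the reporter allele, and each sample pooled 2 mice. Only viable single cells stained for α6 integrin, which marks basal keratinocytes, were collected. GFP-positive cells, not selected on CD34, formed the Gli1+ group, the hedgehog-responding cells (2 arrays, replicates 2 and 3). GFP-negative cells with CD34, labelled as hair follicle bulge cells, formed the CD34+ group (3 arrays). GFP-negative cells without CD34 formed the IFE group, labelled as mostly interfollicular epidermis and infundibulum (3 arrays). The Gli1+ RNA of replicate 1 was set aside by the submitters for its quality. Gli1 reports hedgehog signalling, and the comparisons set these cells against GFP-negative bulge cells and against IFE cells.

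A serpin presents a reactive loop to a protease as bait, and on cleavage the serpin snaps into a new fold and traps the enzyme in a covalent complex. Mammalian serpins are sorted into clades by sequence. Clade A holds mostly secreted proteins such as the antitrypsins, clade B holds mostly proteins without a signal peptide that act inside cells, and other clades include inhibitors of coagulation and of complement as well as members that inhibit no protease. In skin, clade B serpins are found in keratinocytes of the surface and the follicle, where kallikreins, urokinase and cathepsins take part in shedding, barrier formation and repair.

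Between 14 and 22 of the 60 serpin probes were detected on an array. The counts were 19 and 15 on the Gli1+ arrays, 19, 22 and 22 on the CD34+ arrays and 14, 15 and 18 on the IFE arrays. Over all probes the detected share was 43.5% and 38.6% in Gli1+ samples, 47.5% to 49.0% in CD34+ samples and 42.9% to 45.5% in IFE samples, and the CD34+ arrays were highest or tied for highest in both measures. The 2 Gli1+ arrays were less alike than replicates of the other groups, with a correlation across genes of 0.82 against 0.933 to 0.950 within the CD34+ and IFE groups. All 8 markers listed for the sort and for basal keratinocytes were measured, and 7 or 8 of them were detected on every array. Of the 9 measured markers of differentiated keratinocytes, 8 or 9 were also detected on every array. Gli1 mRNA was 3.46 ± 0.42 higher on the log2 scale in Gli1+ than in IFE cells, and CD34+ cells, although GFP-negative, exceeded IFE cells by 2.47 ± 0.37. Gli1 levels of Gli1+ and CD34+ cells overlapped (difference 0.98 ± 0.42, limma adjusted p = 0.258).

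Clade B supplied most of the detected family. There, 16 of 29 probes were detected, for 14 of 25 genes, and 8 of these genes were detected on all 8 arrays. They were Serpinb2, Serpinb5, Serpinb6a, Serpinb6b, Serpinb8, Serpinb10, Serpinb11 and Serpinb12. Clade A followed with 6 of 20 probes, for 6 of 16 genes, and only Serpina12 among them was detected on every array. Clade F had 1 of 4 probes detected (Serpinf1) and clade H its single probe (Serpinh1). The probes of clades C, D, G and I, for antithrombin (Serpinc1), heparin cofactor II (Serpind1), the complement C1 inhibitor (Serping1), neuroserpin (Serpini1) and its relative Serpini2, were detected on no more than 1 array each. The family's share of 40% detected probes compares with 55.5% of all probes, and clade B had 55.2%.

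Of the 27 genes without a detected probe, 17 gave no signal above the threshold on any array. They were Serpina1a, Serpina1c, Serpina1e, Serpina1f, Serpina6, Serpina7, Serpinb13, Serpinb1b, Serpinb1c, Serpinb3d, Serpinb6d, Serpinb9c, Serpinb9d, Serpinb9g, Serpind1, Serpini1 and Serpini2. The other 10, Serpina10, Serpina1b, Serpina1d, Serpina3n, Serpinb9, Serpinb9b, Serpinb9e, Serpinc1, Serpinf2 and Serping1, had a probe detected on 1 array. Among the 11 such probes, 9 were detected on a CD34+ array, 2 on a Gli1+ array and 0 on an IFE array. The same split was not counted over all probes, and the CD34+ arrays had the largest detected shares of all probes. The split is therefore no result about the family. Just inside the rule lay Serpina11, Serpina9, Serpinb6e and a second probe of Serpinb3a, whose second-lowest detection p was 0.0414, 0.0113, 0.0238 and 0.0476. Just outside it lay Serpinb9, an inhibitor of granzyme B, at 0.0539 and Serpina10 at 0.0589. The Serpina1, Serpina3, Serpinb3, Serpinb6 and Serpinb9 groups hold close mouse paralogues. Their probes may share hybridisation, and a level given for one of these genes is uncertain in that respect.

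**Figure D1:**
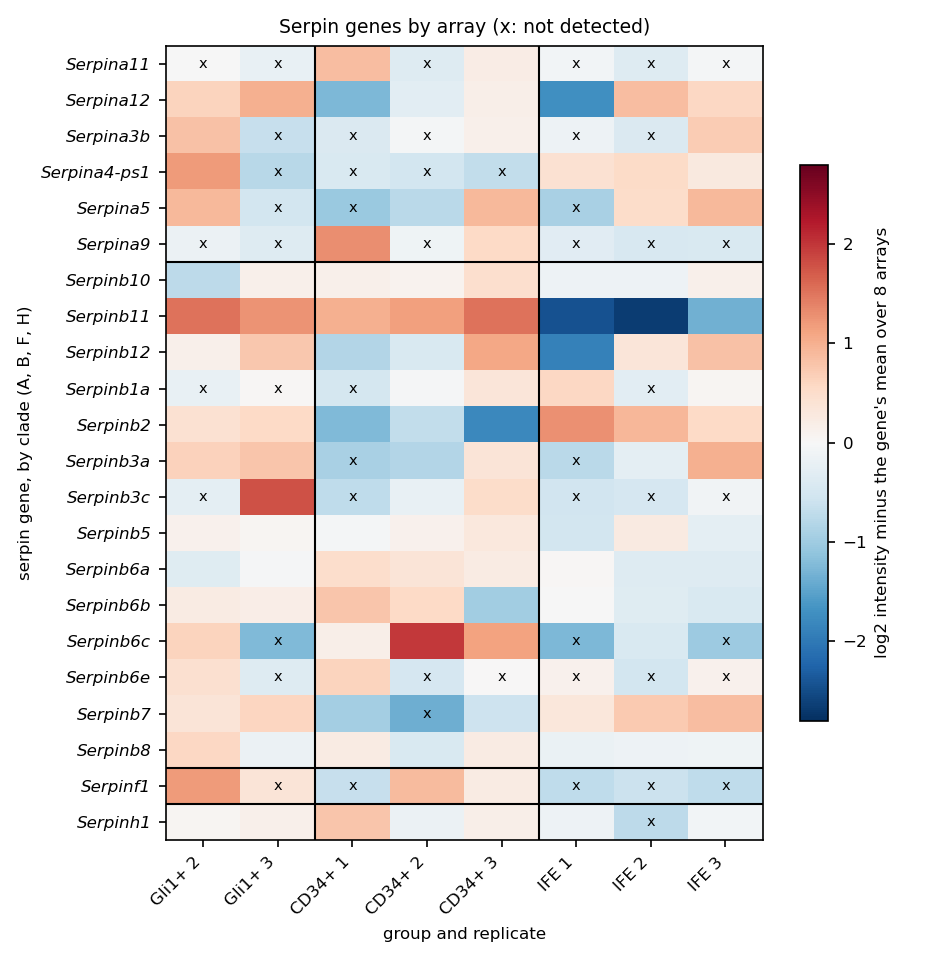
Normalised log2 intensity of the 22 measured serpin genes on each array (columns, by group and replicate), as the difference from the gene's mean over 8 arrays. Crosses mark arrays where the probe was not detected; Serpinb11 is low on all 3 IFE arrays, and Serpinb2 and Serpinb7 are low on all 3 CD34+ arrays.

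Intensities were corrected for background, normalised between arrays and compared in 1 limma fit over 9545 genes, and a gene was called where its adjusted p, by Benjamini-Hochberg over all of them, was under 0.05. Differences are on the log2 scale with their standard errors. Gli1+ cells had 1 serpin higher than IFE cells and 0 lower (also 0 lower at an unadjusted p under 0.05), where 1.3% of all genes were called higher and 0.859% lower (2.16% either way). CD34+ cells had 1 serpin higher and 2 lower than IFE cells, where 2.94% of all genes were called higher and 1.85% lower (4.8% either way). Between Gli1+ and CD34+ cells 0 serpins were called in either direction, against 1.42% of all genes (0.576% higher and 0.849% lower). In that comparison limma gave 2 of 22 serpins an unadjusted p under 0.05, Serpinb2 and Serpinb7. Over all genes the share at an unadjusted p under 0.05 was 17.5% for Gli1+ against CD34+, 17.6% for Gli1+ against IFE and 16.9% for CD34+ against IFE cells, and the unadjusted counts given further on stand against these shares. Both comparisons with IFE cells share the same 3 IFE arrays. The called genes were Serpinb11, Serpinb2 and Serpinb7, all of clade B.

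These 3 genes lie side by side. In the RefSeq order of mouse chromosome 1 (GRCm38.p6) the clade B cluster runs Serpinb5, Serpinb12, Serpinb13, Serpinb3a, Serpinb3d, Serpinb3b, Serpinb3c, Serpinb11, Serpinb7, Serpinb2, Serpinb10 and Serpinb8. The array had probes for 11 of these 12 genes, and 9 were measured. Serpinb11 held place 8, Serpinb7 place 9 and Serpinb2 place 10. The 250 bases before each gene's most upstream RefSeq start are shown because the 3 neighbours differed in opposite directions. All 3 windows are on the + strand, in capitals where a searched motif matched, at chr1:107362064-107362313 for Serpinb11, chr1:107422439-107422688 for Serpinb7 and chr1:107511173-107511422 for Serpinb2.
Serpinb11: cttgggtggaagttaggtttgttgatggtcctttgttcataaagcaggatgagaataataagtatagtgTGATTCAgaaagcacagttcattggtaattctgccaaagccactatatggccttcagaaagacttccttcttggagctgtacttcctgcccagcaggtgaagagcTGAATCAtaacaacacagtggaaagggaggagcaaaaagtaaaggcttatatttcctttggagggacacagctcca
Serpinb7: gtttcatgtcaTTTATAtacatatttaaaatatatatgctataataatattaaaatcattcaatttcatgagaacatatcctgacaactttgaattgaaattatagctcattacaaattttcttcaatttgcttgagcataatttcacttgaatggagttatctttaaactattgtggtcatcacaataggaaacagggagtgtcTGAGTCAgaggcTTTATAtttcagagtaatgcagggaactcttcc
Serpinb2: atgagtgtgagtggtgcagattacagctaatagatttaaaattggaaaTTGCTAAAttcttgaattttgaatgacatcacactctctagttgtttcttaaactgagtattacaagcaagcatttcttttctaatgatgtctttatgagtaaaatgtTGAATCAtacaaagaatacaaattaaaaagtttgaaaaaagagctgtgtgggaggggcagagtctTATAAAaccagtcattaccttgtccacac

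Each of the 3 windows held the AP-1 letters TGANTCA, which read the same on both strands. Serpinb11 had them at -181 and -76, Serpinb7 at -45 and Serpinb2 at -94, counted from the start site to the match's first base on the + strand. Serpinb7 had a TATA box (TATAAA) at -33 and -239 on the - strand, Serpinb2 had one at -29 on the + strand, and the letters TATAAA were not in the Serpinb11 window. Serpinb2 also held the C/EBP letters TTGCNNAA at -202. On both strands of the 27025 promoters of this length in the table, TGANTCA was found in 6.85%, TATAAA in 13% and TTGCNNAA in 9.55%. Of the 22 measured serpins, 19 had a promoter in the table. TGANTCA was in 7 of the 19, all on chromosome 1 (Serpinb5, Serpinb12, Serpinb11, Serpinb7, Serpinb2, Serpinb10 and Serpinb8), and was in the windows of 0 of the 4 clade B serpins with a promoter on chromosome 13. The GLI letters GACCACCCA, found in 0.207% of all promoters, were in 0 of the 19 windows. The AP-2 letters GCCNNNGGC were in 2 of 19 (13.5% of all) and the TCF/LEF letters CTTTGAT in 1 of 19 (3.26% of all). TATAAA was in 6 of 19, also in the uncalled Serpina3b, Serpinb12, Serpinb3a and Serpinb3c. TTGCNNAA was in 5 of 19, also in the uncalled Serpina12, Serpina3b, Serpina5 and Serpinb12. Such matches describe the sequence and were not measured as bound sites.

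Serpinb11, which in the mouse inhibits trypsin-like proteases, was bright in Gli1+ and CD34+ cells and dim in IFE cells. Its normalised log2 level was 9.47 and 9.20 on the Gli1+ arrays, 8.94, 9.09 and 9.47 on the CD34+ arrays and 5.51, 5.29 and 6.60 on the IFE arrays. Every Gli1+ and CD34+ array lay above every IFE array, and the Gli1+ and CD34+ arrays overlapped. Before normalisation the intensities were 962.2 and 635.9 in Gli1+ cells, 637.0, 582.4 and 906.0 in CD34+ cells and 130.3, 127.6 and 196.0 in IFE cells.

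Gli1+ cells averaged 9.34 ± 0.19 (SD, n = 2) and IFE cells 5.80 ± 0.70 (SD, n = 3) for Serpinb11, a difference of 3.54 ± 0.41 or 11.6-fold (limma adjusted p = 0.00745). CD34+ cells averaged 9.17 ± 0.27 (SD, n = 3), which was 3.37 ± 0.37 or 10.3-fold higher than IFE cells (limma adjusted p = 0.000905). Between Gli1+ and CD34+ cells the difference was 0.17 ± 0.41, with a 95% interval of -0.75 to 1.09 (limma adjusted p = 0.864). In sorted bulk samples more expressing cells and more RNA per cell cannot be told apart. The call in Gli1+ cells was lost when the fit held only the Gli1+ and IFE arrays (adjusted p = 0.0579 within a range of 0.000846 to 0.0579 over 19 alternatives). In CD34+ cells it passed in all 19 alternatives (0.000124 to 0.00853). The size depended on the background correction: over the alternatives the log2 difference from IFE cells ran over 2.28 to 3.94 in Gli1+ cells and 2.13 to 3.77 in CD34+ cells, smallest in both with no background correction.

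**Figure D2:**
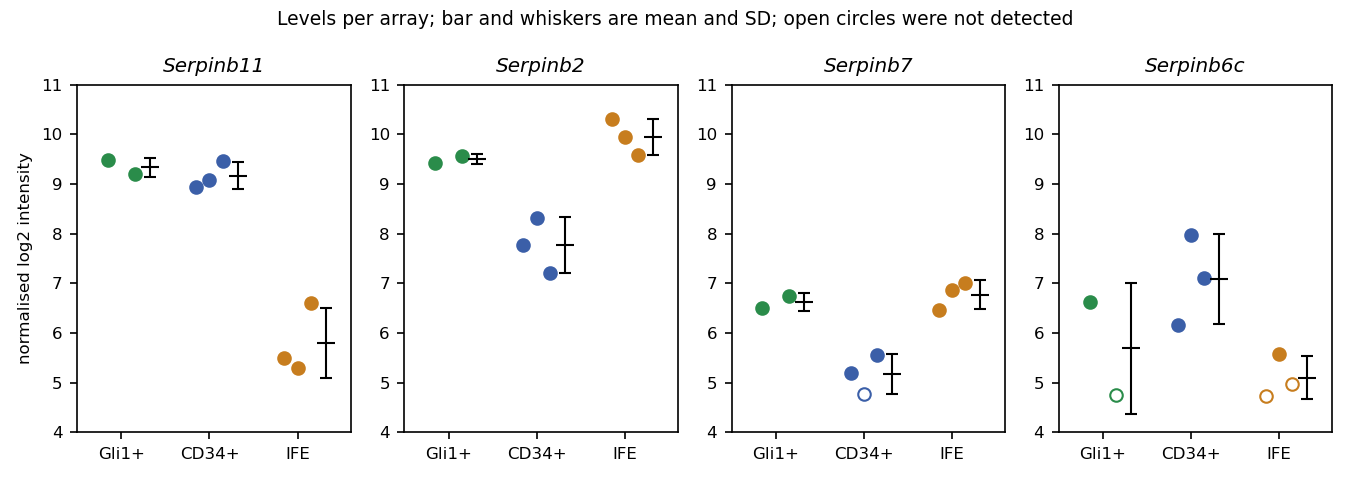
Normalised log2 intensity of Serpinb11, Serpinb2, Serpinb7 and Serpinb6c on each array, by group. Bars and whiskers are the mean and SD of 2 Gli1+, 3 CD34+ and 3 IFE arrays, and open circles were not detected; Serpinb11 separates IFE from the Gli1+ and CD34+ arrays, and Serpinb2 and Serpinb7 separate CD34+ from the others.

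Serpinb2 encodes plasminogen activator inhibitor 2, which inhibits urokinase and is made by keratinocytes. It showed another pattern, with the CD34+ cells standing low. Its log2 level was 9.43 and 9.57 on the Gli1+ arrays, 7.78, 8.32 and 7.20 on the CD34+ arrays and 10.30, 9.94 and 9.57 on the IFE arrays. All CD34+ arrays lay below all others, and the Gli1+ arrays lay at or just under the lowest IFE array. CD34+ cells averaged 7.77 ± 0.56 and IFE cells 9.94 ± 0.36 (SD, n = 3 each), so the gene was 4.50-fold lower in CD34+ cells (-2.17 ± 0.34, limma adjusted p = 0.00649). That call passed in all 19 alternatives (adjusted p 0.00116 to 0.0404).

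Serpinb2 in Gli1+ cells averaged 9.50 ± 0.10 (SD, n = 2), against 7.77 ± 0.56 in CD34+ cells, a difference of 1.73 ± 0.38 that missed the threshold (limma adjusted p = 0.0598). It passed in 6 of 19 alternatives, 5 of them other background or scaling choices and the other the fit without Gli1+ replicate 2 (adjusted p = 0.0359, with a range of 0.0229 to 0.172). Between Gli1+ and IFE cells it differed by -0.44 ± 0.38, with an interval of -1.30 to 0.42 (limma adjusted p = 0.604).

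Serpinb7 encodes megsin, whose loss in people causes Nagashima-type palmoplantar keratosis, a thickening of the skin of palms and soles. Its log2 level was 6.50 and 6.75 on the Gli1+ arrays, 5.19, 4.77 and 5.56 on the CD34+ arrays and 6.46, 6.87 and 7.0 on the IFE arrays. As with Serpinb2, every CD34+ array lay below every other array, and on CD34+ replicate 2 the probe was not detected. CD34+ cells averaged 5.17 ± 0.39 and IFE cells 6.77 ± 0.28 (SD, n = 3 each), 3.03-fold lower in CD34+ cells (-1.60 ± 0.30, limma adjusted p = 0.0160). This call was the least stable of the called ones. It was lost without CD34+ replicate 1 (adjusted p = 0.0568), CD34+ replicate 2 (0.0730), IFE replicate 2 (0.0726) or IFE replicate 3 (0.0848), and on the deposited log2 values without background correction (0.154, with a difference of -0.59).

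In Gli1+ cells Serpinb7 averaged 6.63 ± 0.17 (SD, n = 2), which was 1.45 ± 0.34 above CD34+ cells (limma adjusted p = 0.0693) and -0.15 ± 0.34 from IFE cells (limma adjusted p = 0.872). Markers of differentiated keratinocytes were summed on the same arrays. The summed level of the 9 measured markers was 16414 and 23757 on the Gli1+ arrays, 8435, 11063 and 11983 on the CD34+ arrays and 9773, 14463 and 16195 on the IFE arrays. All 9 were higher on average in Gli1+ than in CD34+ cells, with 1 called (Sprr1b, 2.68 ± 0.39, limma adjusted p = 0.0225), where 0.576% of all genes were called higher. In Gli1+ against IFE cells 7 of 9 were positive, with a median of 0.65 and 1 called (Sprr1b, 2.30 ± 0.39, limma adjusted p = 0.0213), where 1.3% of all genes were called higher. In addition, 8 of 9 were lower on average in CD34+ than in IFE cells, with 0 called by limma and 3 at an unadjusted p under 0.05. Within the IFE group replicate 1 had the lowest sum, and on that array Serpinb2 was highest and Serpinb7 lowest. Their part in the Serpinb2 and Serpinb7 values was not tested.

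The remaining members of the chromosome 1 cluster differed less. Serpinb5 (maspin, which does not inhibit proteases) lay between 7.65 and 8.46 on all 8 arrays, and Serpinb8, an inhibitor of furin linked to peeling skin in people, between 9.52 and 10.54. Serpinb10 (bomapin) was 7.96 and 8.84 in Gli1+ cells, 8.81 to 9.18 in CD34+ cells and 8.56 to 8.85 in IFE cells. None of the 3 was called in any comparison. Serpinb3a, of the squamous cell carcinoma antigen group that inhibits cysteine cathepsins, averaged 1.17 ± 0.54 higher in Gli1+ than in CD34+ cells without passing the threshold (limma adjusted p = 0.302), while its other probe, near background, differed by -0.05. Serpinb3c was detected on 3 arrays, with 7.11 on Gli1+ replicate 3 as its highest level.

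**Figure D3:**
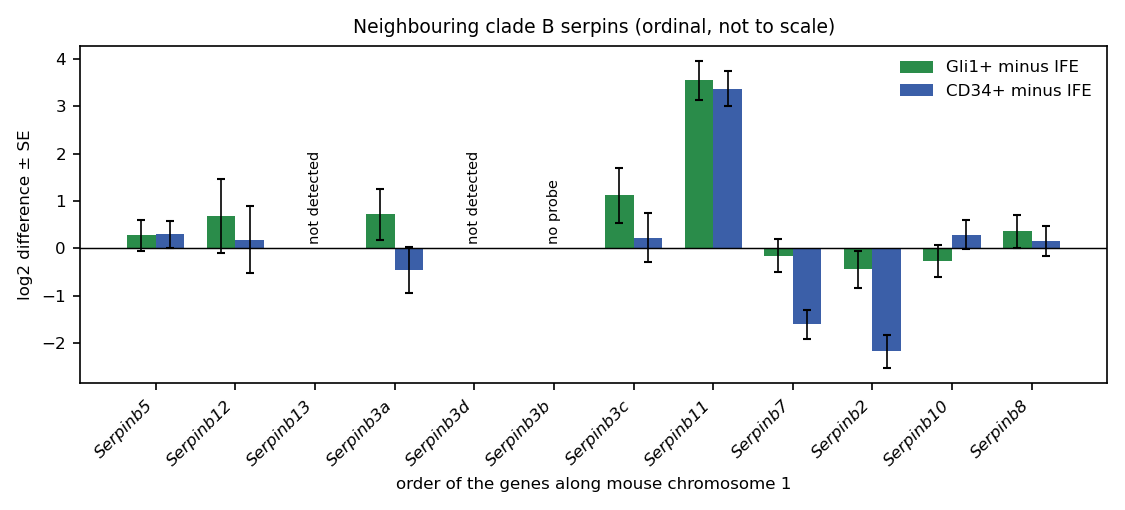
Difference from IFE cells (log2, bars, with whiskers of 1 SE) for the clade B serpins of mouse chromosome 1 in gene order, in Gli1+ cells (green, n = 2) and CD34+ cells (blue, n = 3), against the same 3 IFE arrays. Serpinb11 rises in both, and its neighbours Serpinb7 and Serpinb2 lie below 0 in CD34+ cells.

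The second clade B cluster, on chromosome 13, has 17 genes, 14 of them on the array and 5 measured. Serpinb6c had the largest differences among them. Its log2 level was 6.62 and 4.76 on the Gli1+ arrays, 6.16, 7.98 and 7.11 on the CD34+ arrays and 4.74, 5.58 and 4.98 on the IFE arrays. All CD34+ arrays lay above all IFE arrays, where it was detected on 1 of 3, while the Gli1+ arrays fell on either side. CD34+ cells averaged 7.08 ± 0.91 and IFE cells 5.10 ± 0.43 (SD, n = 3 each), a difference of 1.99 ± 0.56 that missed the threshold (limma adjusted p = 0.0816). With the replicate number as a block, since same-numbered samples came from the same pool of mice, it passed (adjusted p = 0.0268) and CD34+ cells had 2 serpins higher. It also passed without Gli1+ replicate 2 (0.0201) or Gli1+ replicate 3 (0.0213), within a range of 0.0201 to 0.260 over 19 alternatives. The difference was 0.93 with no background correction and 0.99 on the deposited log2 values.

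Serpinb6a, a close relative that inhibits cathepsin G, was 9.43 and 9.73 in Gli1+ cells, 10.26, 10.14 and 10.01 in CD34+ cells and 9.80, 9.41 and 9.40 in IFE cells. The CD34+ arrays lay above all others, by 0.60 ± 0.26 over IFE cells, and the difference did not pass (limma adjusted p = 0.288). Serpinb6b ranged from 5.77 to 7.52 and Serpinb6e, detected on 2 arrays, from 4.53 to 5.68, neither with a call. Serpinb1a, of the neutrophil elastase inhibitors, lay near the detection limit everywhere (4.73 to 5.78) and was detected on 4 arrays.

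The trypsin-type inhibitor Serpinb12 and the secreted Serpina12 varied widely within groups, and neither was called. Serpinb12 was 8.66 and 9.27 in Gli1+ cells, 7.71, 8.09 and 9.61 in CD34+ cells and 6.64, 8.86 and 9.35 in IFE cells. Serpina12 (vaspin), which inhibits the kallikrein Klk7, was 7.78 and 8.16 in Gli1+ cells, 5.90, 6.86 and 7.32 in CD34+ cells and 5.44, 8.02 and 7.73 in IFE cells. In both genes replicate 1 was the lowest array of its group. Replicate 1 minus the mean of replicates 2 and 3 was -1.19 in CD34+ cells and -2.44 in IFE cells for Serpina12, and -1.14 in CD34+ cells and -2.47 in IFE cells for Serpinb12. The second probe of Serpinb12, closer to background, differed by -0.73 between CD34+ and IFE cells, where the first differed by 0.19.

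This pattern was noticed after the values were seen. Replicate 1 was the lowest of 3 in both the CD34+ and the IFE group for 8 of 22 serpins, against 11.9% of all genes. They were Serpina12, Serpina5, Serpinb12, Serpinb3a, Serpinb3c, Serpinb5, Serpinb6c and Serpinf1. Serpinb3c and Serpinf1 were detected on no IFE array, so their order in that group is one of background values. Replicate 1 also had the lowest summed level of differentiated keratinocyte markers in both groups, and the part of these markers in the serpin values was not tested. Gli1+ cells have no replicate 1 array, so their averages over these genes come from the other pools. For Serpina12 the mean of Gli1+ cells lay 1.27 ± 0.71 above that of CD34+ cells (limma adjusted p = 0.391).

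**Figure D4:**
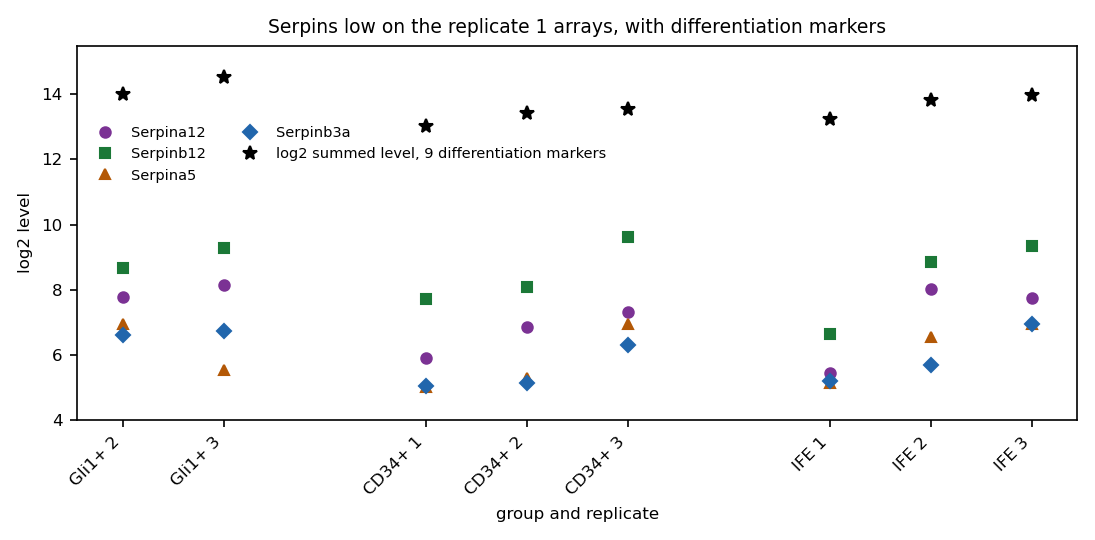
Normalised log2 intensity of Serpina12, Serpinb12, Serpina5 and Serpinb3a on each array, with the log2 of the summed level of 9 differentiation markers (stars). Replicate 1 lies lowest in both the CD34+ and the IFE group for each of the 5 quantities, and the Gli1+ group has no replicate 1.

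Clade A had 0 of 6 genes called by limma in each comparison, and at an unadjusted p under 0.05 it had 1, Serpina9 in CD34+ against IFE cells. Serpina5, the protein C inhibitor, was 6.95 and 5.52 in Gli1+ cells, 5.00, 5.30 and 6.96 in CD34+ cells and 5.13, 6.55 and 6.95 in IFE cells, and the groups overlapped throughout. Serpina9 (centerin, known from germinal centre B cells) was detected on 2 CD34+ arrays, at 6.27 and 5.52, and on no other array. It was at least 1.20-fold higher in CD34+ than in IFE cells, with a difference of 0.98 ± 0.36 that did not pass (limma adjusted p = 0.186). Serpina9 met the detection rule through its CD34+ arrays alone, so a higher level in that group was favoured by the rule itself. The pseudogene Serpina4-ps1 was detected on all 3 IFE arrays (5.64 to 5.92) and on no CD34+ array, at least 1.61-fold lower in CD34+ cells (-0.95 ± 0.44, limma adjusted p = 0.314). Its highest level was on Gli1+ replicate 2 (6.57), and on Gli1+ replicate 3 it was not detected (4.60). Serpina4-ps1 was called lower when the fit held only the CD34+ and IFE arrays and without either Gli1+ array. Serpina11 met the rule through 2 CD34+ arrays alone, as Serpina9 did, and Serpina3b was detected on 3 arrays, 1 in each group.

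The 2 measured serpins outside clades A and B are known for roles other than protease inhibition. Serpinf1 (pigment epithelium-derived factor, secreted and antiangiogenic) was 6.41 and 5.57 in Gli1+ cells and 4.58, 6.09 and 5.45 in CD34+ cells, and it was not detected on the 3 IFE arrays (4.49 to 4.61). It was detected on 1 of the 2 Gli1+ arrays and was at least 1.64-fold higher in Gli1+ than in IFE cells, without passing the threshold (1.45 ± 0.45, limma adjusted p = 0.130). Serpinh1 (HSP47, the collagen chaperone of the endoplasmic reticulum) was 5.94 and 6.03 in Gli1+ cells, 5.72 to 6.67 in CD34+ cells and 5.16 to 5.81 in IFE cells, with no call.

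Both are abundant in fibroblasts, and markers of those cells were summed on the same arrays. Of 14 fibroblast and dermal papilla markers 6 were measured, and Col1a1, Col3a1, Lum, Dcn, Pdgfra, Pdgfrb, Vim and Twist2 did not reach detection on 2 arrays. The summed level of the 6 was 1711 and 1707 in Gli1+ cells, 2670 to 3346 in CD34+ cells and 1436 to 1931 in IFE cells. Thy1, also listed for T cells, was the brightest of the 6 on the Gli1+ and IFE arrays. It averaged lower in Gli1+ and CD34+ cells than in IFE cells, while the other 5 averaged higher in both. Of the 6, limma called 4 higher in CD34+ than in IFE cells (Col1a2, Col6a1, Col6a2 and Sparc), where 2.94% of all genes were called higher. It called 1 higher in Gli1+ than in IFE cells (Col6a2, 1.3% of all genes) and 2 lower in Gli1+ than in CD34+ cells (Col6a1 and Sparc, 0.849% of all genes). The part of these markers in the Serpinf1 and Serpinh1 values was not tested. Markers of Langerhans cells and macrophages summed to 1066 and 1528 in Gli1+ cells, 601 to 727 in CD34+ cells and 405 to 631 in IFE cells over 6 measured of 12, with 0 called by limma in any comparison and 2, 3 and 0 at an unadjusted p under 0.05 in Gli1+ against CD34+, Gli1+ against IFE and CD34+ against IFE cells.

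Over the whole family, 19 or more of the 22 measured serpins were not called in each comparison. The median difference of the 22 genes was 0.18 for Gli1+ against CD34+ cells, 0.21 for Gli1+ against IFE cells and 0.21 for CD34+ against IFE cells, where the medians of all genes were -0.05, -0.05 and -0.01. The medians of the 22 genes stayed above those of all genes under 5 other background and scaling choices. The 2 clade medians had opposite signs in CD34+ against IFE cells, a difference that was not tested. Clade A had a median of -0.26 there, with 2 of 6 genes positive, and clade B 0.21, with 10 of 14 positive. Of all genes 4667 of 9545 were positive in that comparison. Both clade medians were positive in the other comparisons. Gli1+ and CD34+ arrays did not overlap for 4 serpins that were higher in Gli1+ cells and 2 that were lower, where 13.5% and 17.9% of all genes were so separated. For Gli1+ and IFE arrays these numbers were 4 higher and 1 lower (13.5% and 18% of all genes), and for CD34+ and IFE arrays 4 higher and 3 lower (13.9% and 13.7%). The 4 serpins that were higher make 18.2% of the family in each comparison. None of these counts lies far above its background. Serpina9, which met the detection rule through CD34+ arrays alone, is among the 2 lower in Gli1+ than in CD34+ cells. It is also among the 4 higher in CD34+ than in IFE cells. Leaving out the called genes, differences lay between -0.44 and 1.45 for Gli1+ against IFE cells and between -0.95 and 1.99 for CD34+ against IFE cells.

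**Figure D5:**
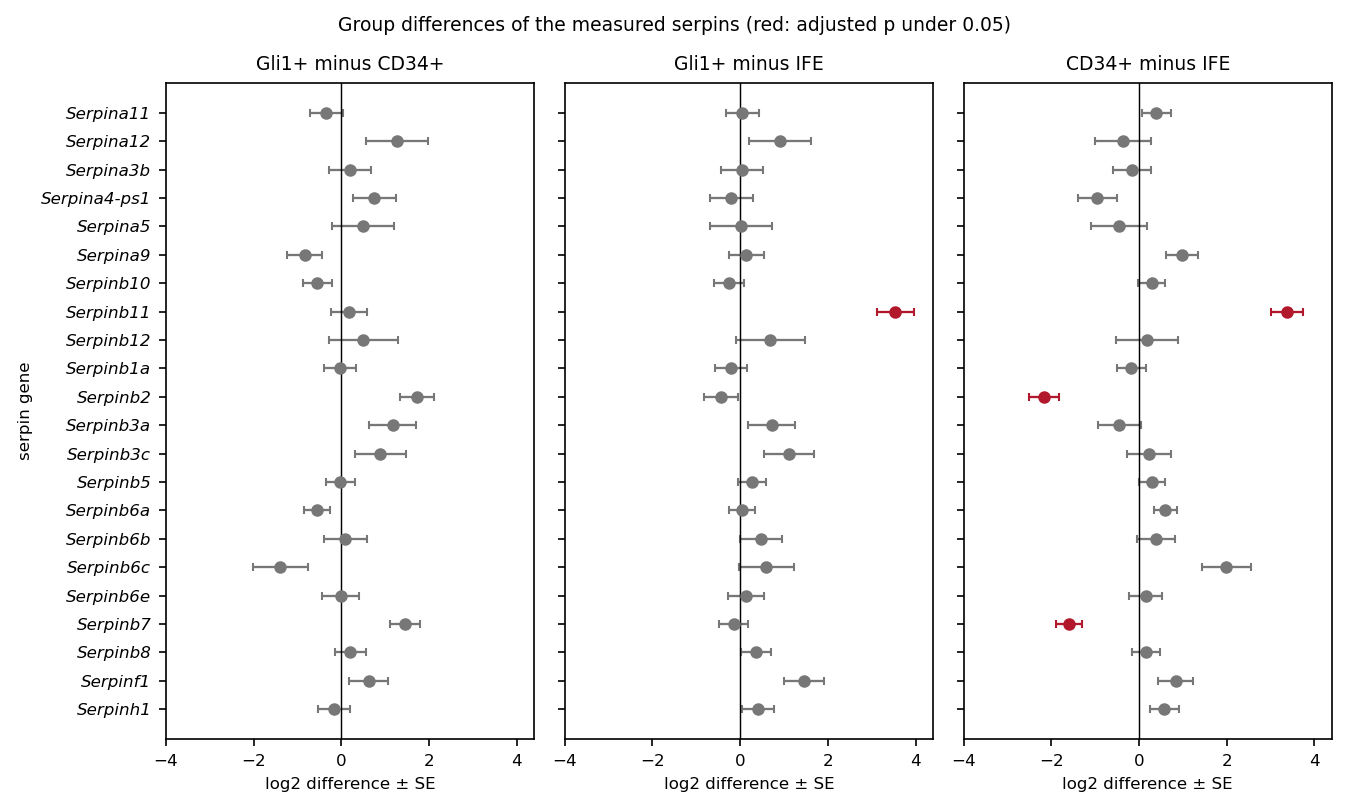
Log2 differences of the 22 measured serpins in the 3 comparisons, with whiskers of 1 SE from the limma fit. Red points had an adjusted p under 0.05; these are Serpinb11 in both comparisons with IFE cells and Serpinb2 and Serpinb7 in CD34+ against IFE cells.

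The proteases that these serpins face were examined as lists. Plasminogen activation, the system that Serpinb2 restrains, had 5 of 9 genes measured and 0 called by limma in each comparison, with 1 at an unadjusted p under 0.05 (Plau in CD34+ against IFE cells). Plau (urokinase) was 7.59 and 9.22 on the Gli1+ arrays, 7.28, 7.69 and 8.04 on the CD34+ arrays and 8.98, 9.45 and 9.66 on the IFE arrays. Its CD34+ arrays lay below its IFE arrays, as those of Serpinb2 did, by -1.70 ± 0.43 (limma adjusted p = 0.0548), and the Gli1+ arrays spanned both groups. Plat, the tissue-type activator, differed by 0.32 ± 0.30 between CD34+ and IFE cells (limma adjusted p = 0.685).

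Kallikreins and other skin serine proteases had 12 of 26 genes measured and 0 called by limma in each comparison. The 12 include F2r, which is a thrombin receptor and not a protease. F2r counts among the negative differences of CD34+ against IFE cells (-1.67 ± 0.43). It also counts among the genes at an unadjusted p under 0.05 in each comparison with IFE cells. At an unadjusted p under 0.05 there were 5 of 12 for Gli1+ against CD34+ cells (17.5% of all genes), 4 for Gli1+ against IFE cells (17.6%) and 6 for CD34+ against IFE cells (16.9%). In CD34+ against IFE cells 11 of the 12 differences were negative with a median of -0.94, where all genes had -0.01 (10 of 12 with median centring or the deposited log2 values). That median was -0.49 with no background correction and -0.36 on the deposited log2 values, where all genes had 0.09. The furthest member was Klk11, at -1.77 ± 0.46 (limma adjusted p = 0.0635). The medians were 0.34 for Gli1+ against CD34+ cells, where 9 of 12 were positive, and -0.32 for Gli1+ against IFE cells. Klk7, the protease that vaspin inhibits, was 10.48 and 10.54 on the Gli1+ arrays, 8.34, 9.20 and 9.57 on the CD34+ arrays and 8.79, 10.17 and 9.83 on the IFE arrays. The Gli1+ arrays lay above all others, and the difference from CD34+ cells of 1.48 ± 0.48 did not pass (limma adjusted p = 0.151).

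Of the lysosomal and granule proteases and caspases, 15 of 23 were measured. Casp14, a caspase of cornification, was 9.50 on both Gli1+ arrays, 6.82, 6.66 and 7.41 on the CD34+ arrays and 8.36, 8.80 and 8.16 on the IFE arrays. The 3 groups did not overlap. Casp14 rose in Gli1+ against CD34+ cells (2.53 ± 0.34, limma adjusted p = 0.0225) and fell in CD34+ against IFE cells (-1.47 ± 0.30, limma adjusted p = 0.0243). The cathepsins Ctsz (1.85 ± 0.30, limma adjusted p = 0.0080) and Ctsf (1.40 ± 0.26, limma adjusted p = 0.0154) rose in CD34+ against IFE cells. Casp8, the initiator of death-receptor apoptosis, fell in Gli1+ against IFE cells (-1.73 ± 0.31, limma adjusted p = 0.0254). No other member of this list was called: 1 of 15 was in Gli1+ against CD34+ cells (1.42% of all genes), 1 in Gli1+ against IFE cells (2.16%) and 3 in CD34+ against IFE cells (4.8%).

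Of 31 listed inhibitors outside the serpin family 13 were measured. Limma called 2 higher in Gli1+ than in IFE cells (2.16% of all genes either way) and 3 higher in CD34+ than in IFE cells (4.8%). In Gli1+ against CD34+ cells limma called 0, with 2 at an unadjusted p under 0.05, Wfdc3 and Timp2 (17.5% of all genes). Timp2, an inhibitor of metalloproteinases, was 9.59 or above on both Gli1+ arrays, 10.51, 10.71 and 10.65 on the CD34+ arrays and 7.01, 7.15 and 6.25 on the IFE arrays. Like Serpinb11, it separated Gli1+ and CD34+ cells from IFE cells, being higher by 2.99 ± 0.35 in Gli1+ cells (limma adjusted p = 0.00745) and by 3.82 ± 0.31 in CD34+ cells (limma adjusted p = 0.000247).

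Pi15, named peptidase inhibitor 15, was not detected on any IFE array and was at least 4.15-fold higher in Gli1+ cells (limma adjusted p = 0.0133) and at least 5.52-fold higher in CD34+ cells (limma adjusted p = 0.00131). Wfdc3, a whey acidic protein domain gene, was 9.24-fold higher in CD34+ than in IFE cells (limma adjusted p = 0.00307). It was detected on 1 of the 3 IFE arrays. The collagen folding list, to which the partners of Serpinh1 belong, had 14 of 20 genes measured and 1 called. This was P3h4, higher in CD34+ than in IFE cells (1.87 ± 0.44, limma adjusted p = 0.0407), where 4.8% of all genes were called either way. In the other comparisons limma called 0 of its genes, with 2 of 14 at an unadjusted p under 0.05 in Gli1+ against CD34+ cells (17.5% of all genes) and 3 in Gli1+ against IFE cells (17.6%).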

How the data were processed

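Expression was measured on Illumina MouseRef-8 bead arrays, 1 array for each of 8 samples. The RNA was prepared with Trizol and biotin-labelled with NuGEN Ovation Pico reagents, per the labels, and the submitters' processing notes name GenomeStudio 2010.3. Per the file headers, the authors deposited a bead-averaged intensity for each probe and array, with its standard error over beads, the bead number and a detection p-value, without background correction or normalisation. A deposited log2 table equalled the log2 of those intensities within 5.5e-05. Coordinates are given only for promoter windows, from RefSeq's GRCm38.p6 table, since the genome build of the array files is not given in the sources used here.

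Background was corrected and arrays quantile normalised with neqc in limma 3.58.1 (R 4.3.3, offset 16), which took its negative controls from the deposited detection p-values. Of 14252 probes kept, 13361 had a gene, and the probe with the highest mean stood for each of 9545 genes. All 8 arrays were fitted with 1 mean per group (lmFit and eBayes, two-sided, degrees of freedom 5 residual plus 4.84 prior) and adjusted by Benjamini-Hochberg within each comparison. The fit was tested on simulated data. Arrays give no counts, so their number limits the precision. The lowest detected log2 value was 5.08 to 5.62, and kept serpin probes averaged 21 to 58 beads with a bead standard error of 3.41% to 16.1% (median 6.80%). A fold is "at least" where the dimmer group had no detected array, taken against that group's lowest detected values or the gene's own level where higher. Such a bound compares means and leaves out the spread between arrays.

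By the series' design, samples that share a number share a pool of mice. Their deviations from the group means correlated across genes between -0.031 and 0.091, and the replicate block was run as an alternative. Other alternatives changed the background correction, scaling, detection filter, choice of probe, samples in the fit, or left out each array in turn. The named genes are every detected serpin, and up to 4 called members of each protease list (or 1 or 2 values where none was called). The members, lists and promoter motifs were chosen with earlier results of these data known.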

Additional observations from a re-analysis of the deposited data

How the results depend on the processing

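Results were recomputed under 19 alternatives. The serpin differences with an unadjusted p under 0.05 kept their direction in each alternative that gave a value, while others did not: of all 22 serpins, 16 were positive in Gli1+ against CD34+ cells on the deposited log2 values, where it was 13, and 20 in Gli1+ against IFE cells, where it was 17. With no background correction Serpina9 differed by 0.47 in CD34+ against IFE cells and Serpinf1 by 0.68 in Gli1+ against IFE cells. Serpins higher in Gli1+ than in CD34+ cells numbered 0 and became 1 with normexp (offset 50), 1 with no background correction, 1 with median centring, 2 with cyclic loess, 1 on the deposited log2 values, and 0 to 3 when an array was left out (3 without Gli1+ replicate 2, namely Serpinb2, Serpinb3c and Serpinb7, and 1 without Gli1+ replicate 3, Serpina4-ps1). Serpins lower numbered 0, and 0 to 1 when an array was left out (Serpinb6c without Gli1+ replicate 2). For Gli1+ against IFE cells the count higher was 1, 0 with only the 2 groups compared, and 1 to 2 when an array was left out (2 without Gli1+ replicate 2, with Serpinb3c), and the count lower was 0, and 0 to 1 (Serpina4-ps1 without Gli1+ replicate 2). For CD34+ against IFE cells the count higher was 1, 2 with the replicate block or only the 2 groups compared, and 1 to 2 when an array was left out (2 without either Gli1+ array, with Serpinb6c). The count lower was 2, 1 on the deposited log2 values, 3 with only the 2 groups compared, and 1 to 3 when an array was left out (3 without either Gli1+ array, with Serpina4-ps1 added in each case, and 1 without CD34+ replicate 1, CD34+ replicate 2, IFE replicate 2 or IFE replicate 3, where Serpinb7 was lost). The replicate block changed no other serpin call. Without a Gli1+ array the lone sample is assumed to vary like the other groups. The detected probes numbered 24, with 18 at a detection p under 0.01, 35 on 1 or more arrays, 20 on 3 or more arrays, and 20 to 24 when an array was left out.

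Over all genes the calls numbered 136 for Gli1+ against CD34+ cells (1 with the replicate block, 1195 without Gli1+ replicate 2), 206 for Gli1+ against IFE cells (6 with only the 2 groups compared, 1200 without Gli1+ replicate 2) and 458 for CD34+ against IFE cells (189 without IFE replicate 3, 843 without Gli1+ replicate 2). Median centring moved the median of all genes in CD34+ against IFE cells to 0.13, where it was -0.01, and split the calls into 310 higher and 91 lower, where they were 281 and 177. On the deposited log2 values the split was 306 and 83. For Gli1+ against IFE cells the calls split into 124 higher and 82 lower, and into 174 and 36 with median centring, 171 and 49 with cyclic loess and 158 and 12 on the deposited log2 values. For Gli1+ against CD34+ cells they split into 55 and 81, and into 106 and 82 with cyclic loess and 54 and 50 on the deposited log2 values. The causes were not tested. Serpins near the lowest detected level have compressed differences, and with 2 Gli1+ arrays small differences were not detectable.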

Other observations

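Other cell types were followed through their markers. Of 9 melanocyte markers, 3 were measured, with a summed level of 371 and 196 in Gli1+ samples, 316 to 421 in CD34+ samples and 98.7 to 127 in IFE samples. Mitf, a melanocyte transcription factor, was higher in Gli1+ than in IFE cells (2.39 ± 0.39, limma adjusted p = 0.0194) and in CD34+ than in IFE cells (3.05 ± 0.35, limma adjusted p = 0.00123), while the other measured markers, Pmel (-0.20 ± 0.33) and Mlana (-0.07 ± 0.28), were not called in CD34+ against IFE cells, so that the difference in the sums rests on Mitf. Dct, Tyr and Tyrp1 did not reach detection on 2 arrays. T cell markers, 6 measured of 10, had 0 members called by limma in any comparison and 1 to 2 at an unadjusted p under 0.05. Endothelial markers, 2 measured of 8, had 0 called by limma and 0 at an unadjusted p under 0.05. Their part in the serpin values was not tested.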
